A study of Mus musculus with 8 samples.

Results

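The genes described here encode the extracellular matrix, its modifying enzymes, its cell-surface receptors and a few fibroblast proteins, and are defined by their names. The set takes every array gene name that begins like a collagen chain, lysyl oxidase, matrix metalloproteinase, metalloproteinase inhibitor, fibulin, fibrillin, laminin or thrombospondin. Integrin chains are taken where a number names the chain, so those named by a letter, such as Itgav (αv), are left out. The set also takes Fn1, Sparc, Postn, Lum, Dcn, Tnc, Thy1, Vim, S100a4, Acta2 and Tagln. It holds 129 of the 27666 genes on the array, read by 242 probes, and the rule for membership uses names and no measured value, although this family was picked for study with earlier results of these data known. A gene with more than 1 probe was represented by that of highest mean intensity over all 8 arrays. The set was drawn up as RNA of the feeder layer, cells expected to lack Dazl-GFP, but these mRNAs are not specific to fibroblasts, and 7 names match only by their letters (for example Itgb1bp1, which encodes a protein that binds an integrin).

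RNA came from Dazl-GFP, a re-derived transgenic mouse embryonic stem (ES) cell line, grown on γ-irradiated mouse embryonic fibroblasts (MEFs) as feeders. All groups shared the same medium, DMEM with 15% fetal bovine serum (FBS), leukemia inhibitory factor (LIF) and 2i, which is 1 µM of the MEK inhibitor PD0325901 and 3 µM of the GSK3β inhibitor CHIR99021. The study's question was which RNAs DAZL, a germ cell RNA-binding protein, binds, and it compared 3 inputs with no antibody, 3 native RNA immunoprecipitations (IPs, without crosslinking) with an anti-GFP antibody and 2 with an anti-PABP1 antibody. PABP1 is the cytoplasmic poly(A) binding protein. A control-antibody IP was not analysed here. The labels do not say whether GFP is fused to DAZL or whether the feeders carry the transgene. They name no separate cultures, so p-values measure a spread between arrays that may be technical. RNA of the ES cells and RNA of the feeders lie in 1 extract, in which fewer cells of a type and less RNA per cell cannot be told apart.

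Fibroblasts build the matrix by secreting collagen chains, which fold into triple helices in the endoplasmic reticulum, are trimmed outside the cell and are cross-linked into fibres by lysyl oxidases. Laminins and collagen IV make the sheet-like basement membrane, metalloproteinases cut the matrix, their inhibitors (TIMPs) restrain them, and integrins, each a pair of an α and a β chain, tie it to the cytoskeleton. ES cells also make basement membrane components and integrins, and nearly all of these mRNAs are translated at the endoplasmic reticulum.

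Intensity is given below as the log2 signal over the 75th percentile of all probes on the same array, so 0 is the 75th percentile and 1 unit is a factor of 2. A gene was tested where all arrays of some group had its probe well above background. This held for 14680 genes and for 82 of the 129 members, and 72 members were well above background on all 8 arrays. Arrays of 1 group correlated at 0.975 to 0.993 across genes, against 0.902 to 0.932 between GFP IP and input arrays and 0.889 to 0.914 between PABP1 IP and input arrays. The arrays lay on 2 slides, with inputs 1 and 2, PABP1 IP 1 and GFP IP 2 on slide 1 and the other arrays on slide 2, so counts with the slide as a block and within each slide are given for each comparison, and the named members whose calls did not pass within a slide are listed after the results. Slide 1 holds 1 GFP IP and 1 PABP1 IP, and slide 2 holds 1 input and 1 PABP1 IP. A group of 1 array, there or after 1 of the PABP1 IPs is left out, is assumed to vary like the other groups, and a call that does not pass on so few arrays is no sign of a smaller difference. Dazl rose 14.1-fold in the GFP IP over input (log2 difference 3.81 ± 0.21 SE, limma adjusted p = 2.17e-05), and it fell by 1.70 in the PABP1 IP. Of 22 fibroblast markers outside the members, 16 were well above background on all 3 inputs, among them Pcolce at 7.63 and Fstl1 at 5.11, while Pdgfra, Meox2, Fap and Fgf7 were above background on no array. All 15 ES cell markers on the array were above background on all 3 inputs.

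Matrix and adhesion mRNAs were mostly lower in the GFP IP than in input. With limma, which was fitted over all genes with Benjamini-Hochberg adjustment at 0.05, 56 of the 82 tested members were lower (68.3%, against 43.3% of all tested genes) and 5 were higher (6.10%, against 21.4%). The median member differed by −0.94 on the log2 scale and the median gene by −0.51, so the members lay 0.43 units below the median gene. All 3 GFP IP arrays were below all 3 inputs for 57 members (69.5%, background 46.1%) and above them for 6 (7.32%, background 23.2%). With the slide as a block, 57 members were lower (69.5%, all genes 51.0%) and 6 higher (7.32%, all genes 24.5%). Within slide 1 there were 39 lower (47.6%, all genes 39.9%) and 5 higher (6.10%, all genes 18.6%), a share of lower calls nearer to that of all genes. Within slide 2 there were 51 lower (62.2%, all genes 37.4%) and 3 higher (3.66%, all genes 19.1%). Scaling each array to its median, where the median gene moved to 0.023, left 25 lower and 9 higher (30.5% and 11.0%), against 21.1% and 30.4% of all genes. Such scaling shifts all genes of an array by the same amount. The members' median relative to all genes, −0.43, therefore could not change with it. Normexp background correction, which models the local background, was run on the mean spot signal in place of the processed signal. It adds an offset of 50, which shrinks log2 differences, most of all for dim probes. With normexp 10 members were lower and 1 higher (12.2% and 1.22%), against 6.59% and 4.04% of all genes.

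The same mRNAs were split in the PABP1 IP. There 22 members were higher than input and 22 lower (26.8% each), against 34.4% and 25.3% of all tested genes, and the median member lay at 0.044 against 0.25 for the median gene. Both PABP1 IP arrays were above all 3 inputs for 30 members (36.6%, background 41.0%) and below them for 27 (32.9%, background 29.9%). With the slide as a block 28 were higher (34.1%, all genes 43.4%) and 26 lower (31.7%, all genes 30.6%). Slide 1 gave 17 higher and 23 lower (all genes 35.2% and 24.1%), and slide 2 gave 16 and 18 (19.5% and 22.0%, all genes 31.4% and 20.4%).

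Set against each other directly, the GFP IP was lower than the PABP1 IP for 51 members (62.2%, background 47.6%) and higher for 9 (11.0%, background 23.8%), with a median of −0.98 against −0.68 for all genes. GFP IP arrays were below both PABP1 IP arrays for 54 members (65.9%, background 53.7%) and above them for 15 (18.3%, background 27.1%). With the slide as a block 52 were lower (63.4%, all genes 55.9%) and 12 higher (14.6%, all genes 26.8%). Within slide 1 the members' share of lower calls, 41.5%, was below that of all genes, 45.6%, and the median of −0.70 was 0.037 units below the median gene. Within slide 2 it was 59.8% against 47.7%, with a median of −0.99, which is 0.37 below. The 3 comparisons share arrays, so their values are given side by side and none is evidence for another.

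**Figure D1:**
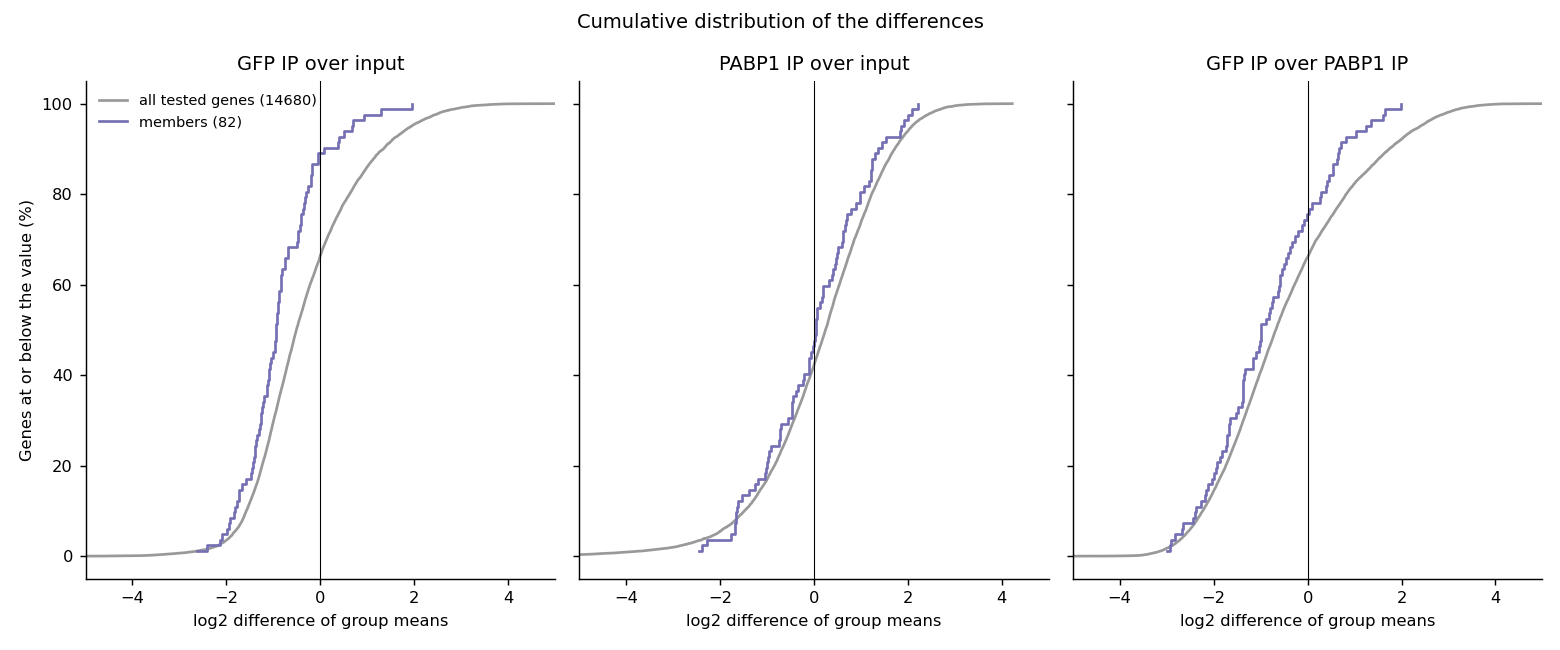
Cumulative share (percent, y axis) of the 82 tested members (purple) and of all 14680 tested genes (grey) by log2 difference of group means (x axis) in the 3 comparisons. The members' curve lies left of the grey curve over most of the GFP IP panels, with medians of −0.94 against −0.51 over input and −0.98 against −0.68 over the PABP1 IP, and the medians are 0.044 and 0.25 for the PABP1 IP over input.

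The fibrillar collagens, the chains that form the tension-bearing fibres of connective tissue, were lower in the GFP IP as a group. Of 9 tested chains (of 11 on the array) 8 were lower (88.9%, all genes 43.3%) and none was higher (all genes 21.4%), with a median of −1.14. In the PABP1 IP 1 was higher, 1 lower and 7 passed neither way, with a median of 0.040. That is 11.1% each way, against 34.4% higher and 25.3% lower of all genes. Col1a1, one of the chains of type I collagen, read 4.49, 4.96 and 4.60 in the inputs. Col1a1 was 3.36, 4.15 and 3.82 in the GFP IPs and 4.93 and 4.80 in the PABP1 IPs. On this probe the GFP IPs were below every input and the PABP1 IPs lay within the input range. The difference was −0.91 ± 0.22 for the GFP IP (1.87-fold lower, adjusted p = 0.00958) and 0.18 ± 0.25 for the PABP1 IP (adjusted p = 0.552). Both further Col1a1 probes that passed the filter fell in the GFP IP as well, by 2.87 and 1.63. They also fell in the PABP1 IP, by 2.12 and 0.73, with both arrays below every input. The PABP1 value of Col1a1 thus depends on the probe. Col1a2, its partner chain, read 5.12, 5.71 and 5.22 in the inputs. Col1a2 was 3.44, 4.46 and 4.12 in the GFP IPs and 5.53 and 5.25 in the PABP1 IPs, with the PABP1 IPs again inside the input range. It was 2.54-fold lower in the GFP IP than in input (−1.35 ± 0.29, adjusted p = 0.00497). Col3a1, the type III chain of soft tissue, read 2.05, 2.60 and 2.09 in the inputs. Col3a1 was 0.54, 1.60 and 1.18 in the GFP IPs and 2.97 and 2.89 in the PABP1 IPs, and its groups did not overlap. Its difference was −1.14 ± 0.28 over input (adjusted p = 0.0101) and −1.82 ± 0.32 over the PABP1 IP (adjusted p = 0.00161).

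In each of these 3 genes GFP IP 1 was the lowest and GFP IP 2 the highest GFP array, and input 2 the highest input. Within slide 1, which pairs 1 GFP array, GFP IP 2, with inputs 1 and 2, the differences had the same sign and did not pass: Col1a1 was −0.57, adjusted p = 0.131, Col1a2 −0.96, adjusted p = 0.0598 and Col3a1 −0.72, adjusted p = 0.102. Col5a1, a type V chain that seeds fibrils, read 2.85, 3.15 and 3.16 in the inputs. Col5a1 was 1.92, 1.95 and 2.10 in the GFP IPs and 3.56 and 3.86 in the PABP1 IPs. It was the member of this group that moved both ways, lower in the GFP IP (−1.06 ± 0.14, adjusted p = 0.00058) and higher in the PABP1 IP (0.66 ± 0.16, adjusted p = 0.00958); the second call was lost without PABP1 IP 2 (0.51, adjusted p = 0.0739). A further probe of Col5a1 fell in both, by 2.98 in the GFP IP and 2.96 in the PABP1 IP. Col2a1, the cartilage collagen, read 0.038, −0.28 and −1.69 in the inputs. Col2a1 was −3.79, −1.35 and −2.74 in the GFP IPs and −1.05 and −2.24 in the PABP1 IPs, a wide spread in which GFP and input arrays overlapped, and its call in the GFP IP (−1.98 ± 0.72, adjusted p = 0.0437) was lost without any 1 of input 1, input 2, GFP IP 1 and GFP IP 3 (−1.93 to −1.40, adjusted p 0.102 to 0.131). With scaling to the array median Col1a1 (−0.37, adjusted p = 0.146), Col3a1 (−0.61, adjusted p = 0.0646) and Col5a1 (−0.53, adjusted p = 0.102) no longer passed.

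**Figure D2:**
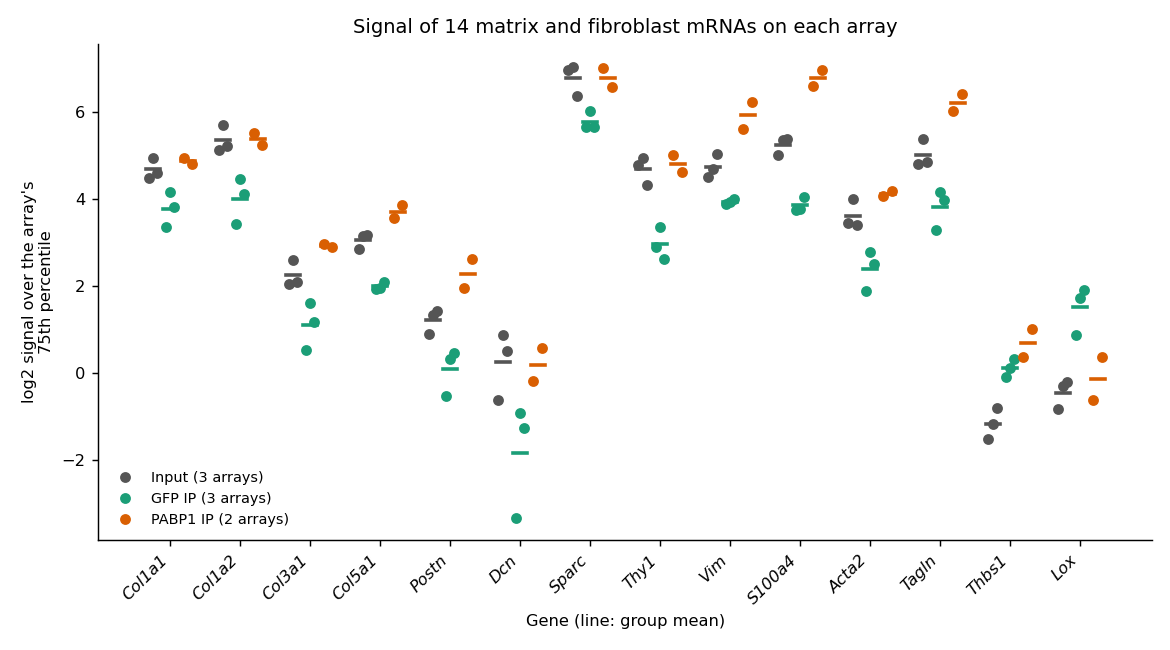
Log2 signal over the 75th percentile of the array (y axis) for 14 members (x axis) on each of 3 inputs (grey), 3 GFP IPs (green) and 2 PABP1 IPs (orange); lines are group means and points are arrays. For the first 12 genes all GFP IP arrays sit below all inputs, whereas for Thbs1 and Lox they sit above them; levels of different genes are read by different probes and are not comparable.

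Among the other collagens, 8 of 10 tested chains (of 21 on the array) were lower in the GFP IP and none was higher. The lower share was 80%, against 43.3% of all genes. The PABP1 IP had 2 higher and 4 lower (20% and 40%, all genes 34.4% and 25.3%). Col8a1, a short-chain network collagen, read 4.15, 4.47 and 4.14 in the inputs. Col8a1 was 3.01, 3.50 and 3.42 in the GFP IPs and 1.94 and 2.00 in the PABP1 IPs. The PABP1 IPs were the lowest arrays, 4.87-fold below input (−2.28 ± 0.19, adjusted p = 7.22e-05), and the GFP IPs lay between (−0.94 ± 0.17, adjusted p = 0.00229). Col8a1 was thus higher in the GFP than in the PABP1 IP (1.34 ± 0.19, adjusted p = 0.000573). The GFP difference over input was −0.41, adjusted p = 0.0985 with scaling to the median and −0.53, adjusted p = 0.153 with the mean of probes, where that between the IPs was 0.76, adjusted p = 0.0807. The mean of probes, here and below, averages all probes of a gene, also those not above background. Col7a1, which forms the anchoring fibrils of skin, read 1.76, 1.80 and 1.78 in the inputs. Col7a1 was 0.44, 0.22 and 0.42 in the GFP IPs and 0.78 and 0.96 in the PABP1 IPs and was lower with both antibodies (−1.41 ± 0.11 for GFP and −0.91 ± 0.13 for PABP1, adjusted p = 7.17e-05 and 0.000754). The 3 type VI chains, beaded-filament collagens of fibroblasts, were all lower in the GFP IP than in input. Of these, Col6a1 and Col6a3 were higher in the PABP1 IP than in input, with no overlap, and Col6a2 overlapped input there. Col13a1, a transmembrane collagen, was lower in the PABP1 IP (−0.72 ± 0.16, adjusted p = 0.00675; lost without PABP1 IP 2 (−0.52, adjusted p = 0.0519)), and its GFP value was −0.33 ± 0.15 (adjusted p = 0.0792). Col9a2, a cartilage fibril-associated chain, passed in no comparison, at 0.074 ± 0.21 in the GFP IP and −0.47 ± 0.24 in the PABP1 IP.

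Several basement membrane collagens and laminins were lower than input with both antibodies. Of 14 tested chains (of 19 on the array), 9 were lower and none higher in the GFP IP (64.3% lower, all genes 43.3%). In the PABP1 IP 5 were lower and 3 higher (35.7% and 21.4%, all genes 25.3% and 34.4%). Lama5, the laminin α5 chain, read 4.82, 4.81 and 4.82 in the inputs. Lama5 was 2.63, 2.49 and 2.09 in the GFP IPs and 2.38 and 2.34 in the PABP1 IPs. Every IP array lay more than 2 units below every input, so Lama5 was 5.33-fold lower in the GFP IP and 5.48-fold lower in the PABP1 IP (−2.42 ± 0.15 and −2.45 ± 0.17, adjusted p = 3.17e-05 and 3.86e-05). The IPs overlapped each other, with a difference of 0.038 ± 0.17. Lamb2, its β2 partner, read 4.05, 4.06 and 3.83 in the inputs. Lamb2 was 2.07, 2.11 and 1.98 in the GFP IPs and 1.68 and 1.50 in the PABP1 IPs. It was lower with both antibodies, at −1.93 ± 0.12 in the GFP IP and −2.39 ± 0.13 in the PABP1 IP (adjusted p = 3.02e-05 and 2.10e-05). Unlike in Lama5, the IPs did not overlap, and the GFP IP was higher by 0.46 ± 0.13 (adjusted p = 0.017; 0.13, adjusted p = 0.909 with normexp; lost without PABP1 IP 2 (0.37, adjusted p = 0.104)). Col18a1, whose C-terminal fragment is endostatin, read 7.13, 7.07 and 6.71 in the inputs. Col18a1 was 4.91, 4.88 and 4.73 in the GFP IPs and 5.45 and 5.13 in the PABP1 IPs and was 4.37-fold and 3.20-fold lower; a further Col18a1 probe fell by 1.94 and 1.53.

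Lamc1, the γ1 chain shared by most laminins, read 5.41, 5.55 and 5.18 in the inputs. Lamc1 was 4.67, 5.30 and 5.09 in the GFP IPs and 4.38 and 4.35 in the PABP1 IPs. It was lower in the PABP1 IP (−1.02 ± 0.21, adjusted p = 0.00446) but overlapped input in the GFP IP (−0.36 ± 0.19, adjusted p = 0.122). The difference between the IPs was 0.65 ± 0.21 (adjusted p = 0.0251) and was lost without any 1 of PABP1 IP 1, PABP1 IP 2, GFP IP 2 and GFP IP 3 (0.51 to 0.66, adjusted p 0.0602 to 0.0879). Col4a4, a collagen IV chain best known from kidney, went the other way with values of 2.23, 1.90 and 0.70 in the inputs. Col4a4 was 0.52, 1.35 and 0.27 in the GFP IPs and 4.20 and 3.03 in the PABP1 IPs. Both PABP1 IPs were above every input (4.01-fold, 2.00 ± 0.57, adjusted p = 0.0181; lost without PABP1 IP 1 (1.42, adjusted p = 0.122); 0.67, adjusted p = 0.236 with the mean of probes), and the GFP IPs overlapped input (−0.90 ± 0.51, adjusted p = 0.153). The further Col4a4 probe in that mean was above background on no array. Lama3, a laminin chain of epithelia, cleared the background on all 3 GFP IPs but on 1 of 3 inputs. Its GFP values were −2.83, −2.07 and −2.49 against inputs of −4.04, −2.24 and −3.88, and it did not pass (adjusted p = 0.123). Col4a1, a main collagen IV chain, was lower in the GFP IP than in input without overlap, and its partner Col4a2 was higher in the PABP1 IP without overlap.

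Lox had the highest difference between the GFP IP and input of any tested member. It encodes lysyl oxidase, the secreted copper enzyme that starts collagen cross-linking, and it read −0.84, −0.31 and −0.21 in the inputs. Lox was 0.88, 1.72 and 1.92 in the GFP IPs and −0.64 and 0.36 in the PABP1 IPs. All GFP IPs were above all other arrays, 3.89-fold over input (1.96 ± 0.37, adjusted p = 0.00274), which was 2.47 units above the median gene. The PABP1 IPs overlapped input (0.32 ± 0.41, adjusted p = 0.532), and the difference between the IPs was 1.64 ± 0.41 (adjusted p = 0.009), which was lost without PABP1 IP 1 (1.14, adjusted p = 0.0687). The difference over input was 1.86 with the slide as a block, 2.30 within slide 1 and 1.61 within slide 2, and it passed the threshold under every alternative processing tried. The array held 1 Lox probe. Both tested relatives were lower in the GFP IP. Loxl1, needed for elastic fibres, read 1.03, 1.29 and 0.78 in the inputs. Loxl1 was 0.018, 0.34 and 0.070 in the GFP IPs and 1.96 and 1.68 in the PABP1 IPs, lower in the GFP IP (−0.89 ± 0.18, adjusted p = 0.00349) and higher in the PABP1 IP (0.79 ± 0.20, adjusted p = 0.0107), the latter lost without PABP1 IP 1 (0.65, adjusted p = 0.0758). Loxl2 was lower in the GFP IP (−0.88 ± 0.21, adjusted p = 0.00815), with GFP values of 2.19, 2.83 and 2.70 against inputs of 3.19, 3.70 and 3.49. With scaling to the median neither relative passed in the GFP IP (−0.36, adjusted p = 0.0785 for Loxl1 and −0.35, adjusted p = 0.241 for Loxl2), nor did Loxl2 within slide 1 (−0.61, adjusted p = 0.131).

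Of 21 metalloproteinases on the array only 8 were tested, and 5 of these were lower and none higher in the GFP IP. The lower share was 62.5%, against 43.3% of all genes. Mmp14, the membrane-bound collagenase, read 1.67, 2.18 and 2.99 in the inputs. Mmp14 was 2.39, 1.73 and 2.54 in the GFP IPs and 0.067 and 1.16 in the PABP1 IPs. Its GFP IPs overlapped input (−0.059 ± 0.43, adjusted p = 0.912) while both PABP1 IPs were lower (−1.66 ± 0.48, adjusted p = 0.0194; lost without PABP1 IP 1 (−1.12, adjusted p = 0.133)). The GFP IP was 3.04-fold above the PABP1 IP (adjusted p = 0.019; lost without any 1 of PABP1 IP 1, GFP IP 1 and GFP IP 3 (1.06 to 1.52, adjusted p 0.0537 to 0.137)). Mmp2, the gelatinase that Mmp14 activates, was lower in the GFP IP (−0.69 ± 0.17, adjusted p = 0.011), but not within slide 1 (−0.49, adjusted p = 0.14) or with scaling to the median (−0.15, adjusted p = 0.551). Mmp11, a stromelysin of stromal fibroblasts, was lower there (−0.97 ± 0.24, adjusted p = 0.0101), though not with scaling to the median (−0.43, adjusted p = 0.0656). Mmp17, a membrane-anchored enzyme, was higher in the PABP1 IP (0.59 ± 0.14, adjusted p = 0.00746; lost without PABP1 IP 1 (0.51, adjusted p = 0.0579)) and overlapped input in the GFP IP (−0.17 ± 0.12). Mmp28, an epithelial enzyme, was above background on no input, on 1 of 3 GFP IPs and on both PABP1 IPs. The PABP1 IPs read −1.76 and −3.51. Their mean was 1.65-fold above the mean of the lowest signals above background on the inputs. PABP1 IP 2 by itself lay below that limit, so this bound rests on PABP1 IP 1. Mmp28 was tested only because both PABP1 IPs cleared the background. The limma difference over input, 1.83, did not pass (adjusted p = 0.124).

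All 4 inhibitors of these enzymes were tested, and 2 were lower and none higher in the GFP IP. The lower share, 50%, was near that of all genes, 43.3%. Timp1, a small secreted inhibitor made abundantly by fibroblasts, read 7.52, 7.38 and 7.07 in the inputs. Timp1 was 5.64, 5.47 and 5.36 in the GFP IPs and 8.41 and 8.21 in the PABP1 IPs, and its 3 groups were fully separate. It was 3.58-fold lower in the GFP IP than in input (−1.84 ± 0.16, adjusted p = 8.47e-05) and 1.98-fold higher in the PABP1 IP (0.99 ± 0.18, adjusted p = 0.00232), a difference of −2.82 ± 0.18 between the IPs. The GFP difference was −1.78 with the slide as a block, −1.99 within slide 1 and −1.57 within slide 2. Both further Timp1 probes had the same signs, falling by 0.94 and 1.02 in the GFP IP and differing by 1.78 and 1.72 in the PABP1 IP; quantile normalization ended the PABP1 call (0.12, adjusted p = 0.43). Timp2, which also helps Mmp14 activate Mmp2, overlapped input. It read 1.36, 2.12 and 1.87 in the inputs. Timp2 was 1.87, 2.89 and 2.68 in the GFP IPs and 1.65 and 1.70 in the PABP1 IPs, a GFP difference of 0.70 ± 0.30 (adjusted p = 0.0776). Timp3, the matrix-bound inhibitor, lay at −0.054 ± 0.28 in the GFP IP (adjusted p = 0.876), with all 3 groups overlapping. Timp4 was lower in the GFP IP (−0.95 ± 0.26, adjusted p = 0.0143), a call that scaling to the median ended (−0.42, adjusted p = 0.356).

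The fibulins, fibrillins and matrix glycoproteins were mixed. Of 13 tested (of 15 on the array) 7 were higher and 3 lower than input in the PABP1 IP. These are 53.8% and 23.1%, against 34.4% and 25.3% of all genes (median 0.98 against 0.25). The GFP IP had 2 higher and 6 lower (15.4% and 46.2%, all genes 21.4% and 43.3%). Its median of −0.49 was near that of all genes, −0.51. Fbln2, an elastic-fibre and basement membrane glycoprotein, had the lowest GFP difference of all tested members. It read 6.08, 6.20 and 5.65 in the inputs. Fbln2 was 3.19, 3.62 and 3.23 in the GFP IPs and 5.52 and 5.01 in the PABP1 IPs, 6.20-fold lower in the GFP IP (−2.63 ± 0.22, adjusted p = 7.56e-05; −2.48 with the slide as a block, −2.52 within slide 1 and −2.44 within slide 2). In the PABP1 IP it was −0.71 ± 0.24 (adjusted p = 0.0381), lost without any 1 of input 1, input 2, PABP1 IP 2, GFP IP 1 and GFP IP 3 (−0.71 to −0.45, adjusted p 0.0526 to 0.226). Fbln1 read 4.70, 4.70 and 5.02 in the inputs. Fbln1 was 4.33, 3.59 and 3.98 in the GFP IPs and 3.86 and 4.31 in the PABP1 IPs, lower with both antibodies (−0.84 ± 0.23 and −0.72 ± 0.25, adjusted p = 0.014 and 0.0412). Its PABP1 call was lost without any 1 of input 1, input 2, input 3, PABP1 IP 1 and GFP IP 3 (−0.78 to −0.49, adjusted p 0.0642 to 0.231), and its GFP call with scaling to the median (−0.31, adjusted p = 0.487).

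Sparc, a collagen-binding glycoprotein, read 6.96, 7.05 and 6.38 in the inputs. Sparc was 5.67, 6.04 and 5.65 in the GFP IPs and 7.01 and 6.57 in the PABP1 IPs. The GFP IPs were 2.02-fold below input (−1.01 ± 0.23, adjusted p = 0.00638) and the PABP1 IPs overlapped it (−0.0074 ± 0.25). The difference between the IPs was −1.01 ± 0.25 (adjusted p = 0.00957), but 0.092 with quantile normalization, and it was lost without PABP1 IP 1 (−0.79, adjusted p = 0.0728). Fn1, fibronectin, a main integrin ligand, read 4.52, 4.61 and 4.20 in the inputs. Fn1 was 3.84, 4.40 and 4.18 in the GFP IPs and 3.57 and 3.39 in the PABP1 IPs, so it was lower in the PABP1 IP (−0.97 ± 0.21, adjusted p = 0.0053) and overlapped input in the GFP IP (−0.31 ± 0.18, adjusted p = 0.177). The IPs differed by 0.66 ± 0.21 (adjusted p = 0.0227), lost without any 1 of PABP1 IP 1, PABP1 IP 2, GFP IP 2 and GFP IP 3 (0.53 to 0.75, adjusted p 0.056 to 0.107). Its other probes disagreed about the GFP IP, at 0.089 and −2.24, and were both lower in the PABP1 IP, at −0.90 and −3.53.

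Postn, periostin, a matrix protein of activated fibroblasts, read 0.90, 1.33 and 1.42 in the inputs. Postn was −0.52, 0.32 and 0.46 in the GFP IPs and 1.94 and 2.62 in the PABP1 IPs, with 3 separate groups. It was lower in the GFP IP (−1.13 ± 0.31, adjusted p = 0.0155; −0.60, adjusted p = 0.186 with scaling to the median) and higher in the PABP1 IP (1.06 ± 0.35, adjusted p = 0.0328; lost without any 1 of input 1, input 2 and PABP1 IP 2 (0.73 to 1.12, adjusted p 0.0601 to 0.192)). Within slide 1 and slide 2 its GFP difference was −0.80, adjusted p = 0.0564 and −1.44, adjusted p = 0.0528. Tnc, tenascin C, read −1.12, −0.58 and −0.59 in the inputs. Tnc was −1.69, −0.93 and −1.13 in the GFP IPs and 0.32 and 0.62 in the PABP1 IPs, higher in the PABP1 IP (1.23 ± 0.27, adjusted p = 0.00666) and at −0.49 ± 0.25 in the GFP IP (adjusted p = 0.116). The mean of all Tnc probes had the opposite sign in the PABP1 IP (−0.56) and did not pass. Fbn1, fibrillin 1, the core of elastic microfibrils, cleared the background on just 1 of 3 inputs and read −3.37, −3.15 and −2.10 in the inputs. Fbn1 was −3.24, −3.03 and −2.94 in the GFP IPs and −0.98 and −0.60 in the PABP1 IPs, with both PABP1 IPs above every input. The fit called it higher in the PABP1 IP (2.08 ± 0.36, adjusted p = 0.00213; 0.37, adjusted p = 0.645 with normexp), a difference measured against inputs that were mostly not above background.

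Dcn, decorin, a collagen-binding proteoglycan and a classic fibroblast marker, read −0.62, 0.87 and 0.49 in the inputs. Dcn was −3.33, −0.94 and −1.27 in the GFP IPs and −0.20 and 0.57 in the PABP1 IPs. GFP IP 1 lay far below the other GFP IPs; the difference of −2.09 ± 0.68 (adjusted p = 0.0298) became −1.35, adjusted p = 0.052 without that array, and it was lost without any 1 of input 2, input 3 and GFP IP 1 (−1.97 to −1.35, adjusted p 0.052 to 0.0926). Its difference over input was −2.04 with the slide as a block, −1.06 within slide 1 and −2.79 within slide 2. Against the PABP1 IP it was −2.03 ± 0.76 (adjusted p = 0.0454), lost without any 1 of input 2, input 3, PABP1 IP 1, PABP1 IP 2, GFP IP 1 and GFP IP 3 (−2.41 to −1.29, adjusted p 0.0521 to 0.182). Lum, lumican, of the same family, did not pass in the GFP IP (−0.41 ± 0.40, adjusted p = 0.395) and was higher in the PABP1 IP (1.24 ± 0.45, adjusted p = 0.0465), a call lost without any 1 of input 1, input 3, PABP1 IP 2, GFP IP 2 and GFP IP 3 (0.83 to 1.39, adjusted p 0.0536 to 0.244).

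Thbs1, thrombospondin 1, an adhesive glycoprotein, read −1.52, −1.17 and −0.81 in the inputs. Thbs1 was −0.10, 0.11 and 0.33 in the GFP IPs and 0.37 and 1.01 in the PABP1 IPs on its chosen probe. All IP arrays were above all inputs, 2.43-fold for GFP (1.28 ± 0.25, adjusted p = 0.00306) and 3.64-fold for PABP1 (1.86 ± 0.27, adjusted p = 0.000918). A further probe went the opposite way, falling by 2.07 in the GFP IP and by 1.89 in the PABP1 IP, and the mean over probes was −1.31, adjusted p = 0.000623 for the GFP IP, so the direction of Thbs1 depends on the probe. The remaining member of this group that was higher in the GFP IP was Fbln5, an elastogenic fibulin, with GFP values of 0.91, 1.00 and 0.89 against inputs of 0.40, 0.74 and 0.52; it is outside the rule for named genes and is named because it is 1 of only 5 higher members.

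On their chosen probes, all 5 fibroblast surface and cytoskeleton genes were lower in the GFP IP than in input and than in the PABP1 IP. Of all genes 43.3% and 47.6% were. In the PABP1 IP 3 of the 5 were higher than input (60%, all genes 34.4%). S100a4, the calcium-binding protein also called fibroblast-specific protein, read 5.01, 5.36 and 5.39 in the inputs. S100a4 was 3.76, 3.77 and 4.05 in the GFP IPs and 6.60 and 6.97 in the PABP1 IPs. The 3 groups were far apart, 2.63-fold lower in the GFP IP (−1.39 ± 0.17, adjusted p = 0.000358) and 2.89-fold higher in the PABP1 IP (1.53 ± 0.19, adjusted p = 0.000385). Between the IPs S100a4 differed 7.60-fold (−2.93 ± 0.19; −2.96 with the slide as a block, −2.83 within slide 1 and −3.07 within slide 2). Vim, vimentin, the intermediate filament of mesenchymal cells, read 4.51, 4.69 and 5.04 in the inputs. Vim was 3.89, 3.94 and 3.99 in the GFP IPs and 5.62 and 6.24 in the PABP1 IPs, lower in the GFP IP (−0.81 ± 0.20, adjusted p = 0.0102; −0.27, adjusted p = 0.475 with scaling to the median) and higher in the PABP1 IP (1.18 ± 0.23, adjusted p = 0.0032). The second call was lost when probes were averaged (0.26, adjusted p = 0.274) and under quantile normalization (0.66, adjusted p = 0.0543).

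Tagln, transgelin, an actin-binding protein of contractile cells, read 4.80, 5.38 and 4.85 in the inputs. Tagln was 3.29, 4.16 and 3.98 in the GFP IPs and 6.02 and 6.41 in the PABP1 IPs. It was lower in the GFP IP (−1.20 ± 0.27, adjusted p = 0.00689) and higher in the PABP1 IP (1.21 ± 0.31, adjusted p = 0.0116), the latter lost without PABP1 IP 2 (1.01, adjusted p = 0.0749). Its GFP call was lost with scaling to the median (−0.66, adjusted p = 0.0747) and within slide 1 (−0.93, adjusted p = 0.0628). A further Tagln probe above background on all arrays overlapped input in the GFP IP (−0.16) and was above every input in the PABP1 IP (2.41). Acta2, smooth muscle actin, the marker of myofibroblasts, read 3.46, 4.0 and 3.41 in the inputs. Acta2 was 1.89, 2.78 and 2.51 in the GFP IPs and 4.07 and 4.19 in the PABP1 IPs, 2.34-fold lower in the GFP IP (−1.22 ± 0.26, adjusted p = 0.00515), with −0.94, adjusted p = 0.0533 within slide 1 and −0.61, adjusted p = 0.0566 with the mean of probes. A further Acta2 probe above background on all arrays differed by 0.49 in the GFP IP, the opposite sign. Thy1, a surface glycoprotein by which fibroblasts are sorted, read 4.79, 4.94 and 4.33 in the inputs. Thy1 was 2.89, 3.36 and 2.62 in the GFP IPs and 5.02 and 4.62 in the PABP1 IPs; it was 3.32-fold lower in the GFP IP (−1.73 ± 0.25, adjusted p = 0.000783) and overlapped input in the PABP1 IP (0.13 ± 0.28, adjusted p = 0.704).

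Of 21 integrin chains in the set, which are those named with a number, 12 were tested. The GFP IP had 8 lower and 2 higher than input (66.7% and 16.7%, all genes 43.3% and 21.4%). The PABP1 IP had 6 lower and 1 higher (50% and 8.33%, all genes 25.3% and 34.4%). Itgb3, Itgb4, Itgb5 and Itgb7 were lower with both antibodies. Itgb7, the β7 chain of lymphocyte integrins, read 4.50, 4.29 and 3.94 in the inputs. Itgb7 was 2.31, 2.35 and 2.22 in the GFP IPs and 2.87 and 2.56 in the PABP1 IPs, 3.87-fold lower in the GFP IP and 2.89-fold lower in the PABP1 IP (−1.95 ± 0.17 and −1.53 ± 0.19, adjusted p = 9.46e-05 and 0.000427). Itgb5, a vitronectin receptor chain, read 5.97, 5.97 and 5.92 in the inputs. Itgb5 was 4.80, 4.58 and 4.62 in the GFP IPs and 4.78 and 4.72 in the PABP1 IPs, at −1.28 ± 0.11 and −1.20 ± 0.12. Itgb4, the laminin receptor chain of hemidesmosomes, lay at −1.27 ± 0.10 and −1.25 ± 0.11 (the latter −0.48, adjusted p = 0.111 with the mean of probes), and Itgb3, partner of αv, at −1.67 ± 0.11 and −1.76 ± 0.13. In Itgb3, Itgb4 and Itgb5 no IP array reached any input, while GFP and PABP1 arrays overlapped. Itga9 was lower with both as well (−0.97 ± 0.16 and −1.69 ± 0.18); the GFP value was −0.44, adjusted p = 0.0676 with scaling to the median, and its difference between the IPs (0.72 ± 0.18) was lost without PABP1 IP 1 (0.64, adjusted p = 0.0616).

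Calls went opposite ways with the antibodies in 2 integrins. Itgb2, the leukocyte β2 chain, was lower in the GFP IP and higher in the PABP1 IP. Itga6, the laminin receptor chain found on ES cells, did the reverse. Itga6 read 3.76, 3.79 and 3.57 in the inputs. Itga6 was 4.06, 4.38 and 4.16 in the GFP IPs and 2.82 and 3.09 in the PABP1 IPs, higher in the GFP IP (0.50 ± 0.14, adjusted p = 0.0173; lost without GFP IP 2 (0.40, adjusted p = 0.0518)) and lower in the PABP1 IP (−0.75 ± 0.16, adjusted p = 0.00487), with 2.37-fold between them (adjusted p = 0.000316). A second probe differed by −0.078 in the GFP IP and −1.67 in the PABP1 IP, and the mean of all probes reversed the GFP sign (−0.85, adjusted p = 0.00212). Itgb1, the β1 chain that pairs with most matrix-binding α chains, read 0.071, 0.11 and 0.49 in the inputs. Itgb1 was 0.94, 0.73 and 1.00 in the GFP IPs and 0.33 and 0.93 in the PABP1 IPs, higher in the GFP IP (0.67 ± 0.20, adjusted p = 0.0213). That call was lost without any 1 of input 1, input 2, GFP IP 1 and GFP IP 3 (0.59 to 0.64, adjusted p 0.0611 to 0.0704). The mean of the Itgb1 probes was −0.21, adjusted p = 0.185, and includes a probe above background on no array. Itga5, the fibronectin receptor chain, read 0.83, 0.62 and 0.31 in the inputs. Itga5 was −0.35, −0.28 and −0.41 in the GFP IPs and 0.82 and 0.45 in the PABP1 IPs, lower in the GFP IP (−0.94 ± 0.17, adjusted p = 0.00238; −0.40, adjusted p = 0.0592 with scaling to the median) and overlapping input in the PABP1 IP (0.048 ± 0.19).

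**Figure D3:**
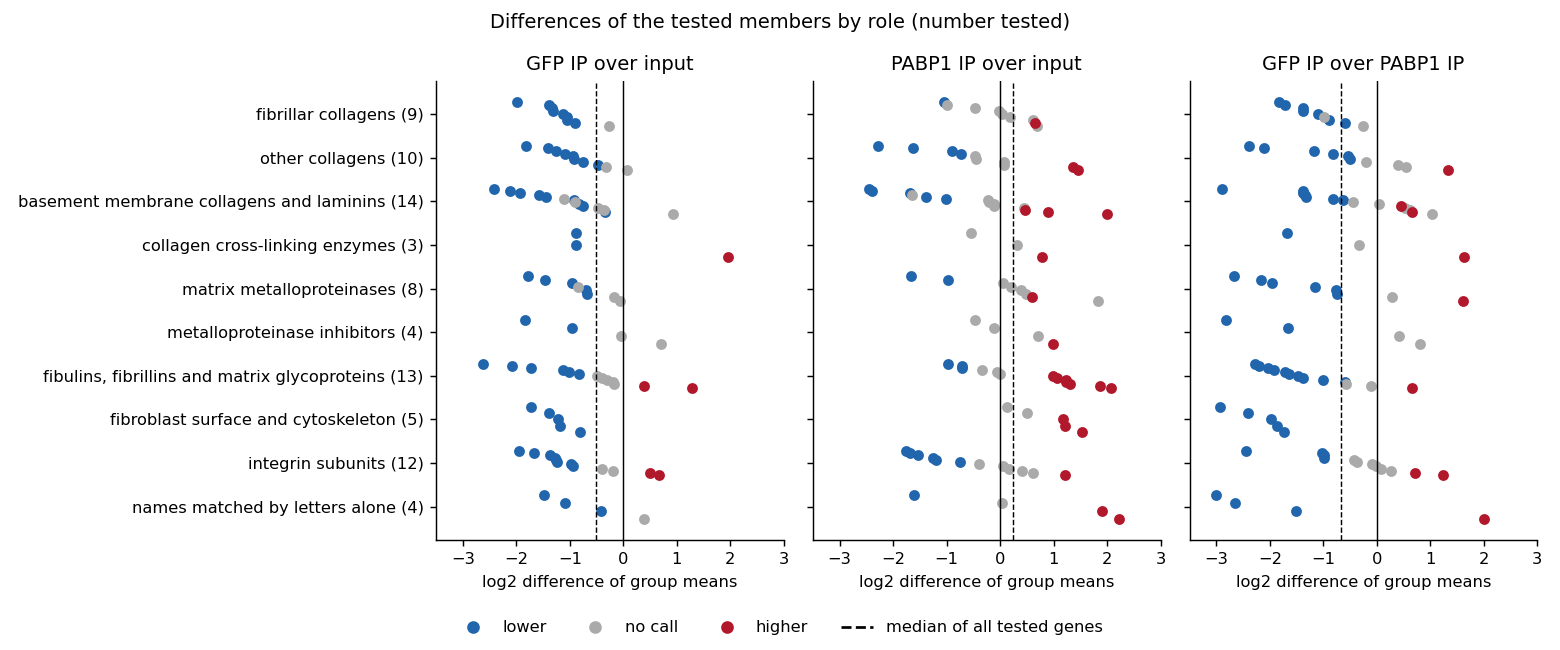
Log2 difference of group means (x axis) for each of the 82 tested members, by role (y axis, number tested in brackets), in the 3 comparisons; blue is lower and red higher at limma adjusted p under 0.05, grey passes neither, and the dashed line is the median of all tested genes. In the GFP IP over input most points are blue and Lox stands alone at 1.96. In the PABP1 IP over input all 5 surface and cytoskeletal genes lie to the right of 0. There 6 of 13 glycoproteins and 7 of 12 integrins lie to the left of 0.

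The names that match by letters alone are no matrix genes, and 4 of the 7 were tested. Itgb3bp, a centromere protein also called CENP-R, read 0.0023, 0.065 and 0.076 in the inputs. Itgb3bp was −1.12, −0.97 and −1.05 in the GFP IPs and 1.95 and 1.96 in the PABP1 IPs, 2.13-fold lower in the GFP IP and 3.75-fold higher in the PABP1 IP, the widest gap between the IPs of any tested member (−3.00 ± 0.11, adjusted p = 9.24e-06). With the mean of its probes the PABP1 call was lost (0.032, adjusted p = 0.948), but its further probes were above background on at most 1 array. Itgb1bp1, an integrin-binding adaptor, was 4.67-fold higher in the PABP1 IP (2.22 ± 0.13). Its GFP difference of −0.43 ± 0.12 had the opposite sign with scaling to the median (0.11) and was lost without GFP IP 3 (−0.42, adjusted p = 0.0515). Col4a3bp (RefSeq Cert1), a ceramide transfer protein, went the other way, lower in the PABP1 IP (−1.61 ± 0.18; −0.39, adjusted p = 0.0503 with the mean of probes) and 3.99-fold higher in the GFP than in the PABP1 IP. Itgb4bp (RefSeq Eif6), a ribosome assembly factor, was lower in the GFP IP (−1.48 ± 0.13, adjusted p = 8.64e-05). Without these names the GFP IP had 53 lower and 5 higher of 78 tested members (67.9% and 6.41%, all genes 43.3% and 21.4%), with a median of −0.94.

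Of the 47 members not tested, 29 were above background on no array, and 18 on some arrays only. They include most metalloproteinases and several collagens known from cartilage, muscle and skin. Such genes could be neither called nor shown to be absent.

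Other genes of matrix synthesis and adhesion came from 3 lists of pathway genes, to be read against all tested genes, of which 43.3% were lower in the GFP IP and 21.4% higher. Of 19 tested genes of collagen synthesis and export 9 were lower and 1 higher (47.4% and 5.26%), with a median of −0.28, which is 0.23 units above the median gene. Ppib, a collagen-folding cyclophilin, fell by 1.88 and Pcolce, which speeds procollagen trimming, by 1.69, while Plod2, a collagen lysyl hydroxylase, was 1.86-fold higher. Proteoglycans and glycoproteins outside the members gave 17 lower and 5 higher of 31 (54.8% and 16.1%), with a median of −0.69, which is 0.17 below the median gene; Vcan, versican, fell by 2.29 and Sdc4, a syndecan, was 3.09-fold higher. Cytosolic integrin adhesion genes gave 10 lower and 6 higher of 24 (41.7% lower), with a median of −0.18, which is 0.33 above the median gene, and with Tln1, talin, falling by 1.33 and Actn1, an actinin, at 1.07. In the PABP1 IP, where all genes gave 34.4% higher and 25.3% lower, these lists gave 3 higher and 5 lower of 19 (15.8% and 26.3%), 7 and 6 of 31 (22.6% and 19.4%), and 5 and 8 of 24 (20.8% and 33.3%).

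Markers of other cells that could have supplied the RNA are given by their values, and their part in the members' differences was not tested. Of 18 tested fibroblast markers outside the members, the GFP IP had 9 lower and 1 higher (all genes 43.3% and 21.4%; median −0.48, which is 0.030 above the median gene). In the PABP1 IP 6 were higher and 4 lower (33.3% and 22.2%, against 34.4% and 25.3%). Their summed intensity was 0.0845% to 0.0939% of the total in input, 0.0577% to 0.0660% in the GFP IPs and 0.0603% to 0.0737% in the PABP1 IPs. That of the members was 0.295% to 0.359%, 0.207% to 0.252% and 0.225% to 0.303%. Of 15 ES cell markers the GFP IP had 8 higher and 2 lower (53.3% and 13.3%, median 0.55) and the PABP1 IP 4 of each. Their summed intensity was 0.877% to 1.16% in input, 0.896% to 0.992% in the GFP IPs and 0.539% to 0.731% in the PABP1 IPs. The other lists hold few tested genes. Of 5 tested macrophage and blood markers 4 were lower in the GFP IP, and in the PABP1 IP 2 were higher, 1 lower and 2 not called. There Tyrobp differed by 2.98 and Cd68 by 0.85, which passed, while Laptm5 was lower at −0.54, and Lyz2 at 1.16 and Csf1r at −1.67 did not pass. Of 8 tested markers of endoderm, which also makes laminins and collagen IV, the GFP IP had 1 in each direction and the PABP1 IP 4 higher and none lower. Sox7, Afp, Ttr and Cubn were above background on no array. Smooth muscle markers gave 3 of 5 lower in the GFP IP and 2 of 5 higher in the PABP1 IP. Of 3 endothelial markers the GFP IP had 2 lower with 1 higher, and 2 were lower in the PABP1 IP, and Cdh5 and Kdr were above background on no array.

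Where a member gene had further probes that passed the filter, 35 probes of 27 genes, the sign matched the chosen probe for 27 in the GFP IP over input, for 31 between the IPs and for 25 in the PABP1 IP against input. For members that were called, it matched for 23 of 28, 25 of 26 and 14 of 18 such probes, in that order. The positions of the probes in their transcripts were not analysed here.

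The spread of the members between arrays was measured too. Their median standard deviation was 0.28 in the GFP IP group against 0.20 for all tested genes, and 0.26 against 0.23 in input and 0.21 against 0.21 in the PABP1 IP. GFP IP 1 was the lowest of the 3 GFP arrays for 48 members (58.5%), as for 30.1% of all tested genes, and GFP IP 2 the highest for 44 (53.7%), against 48.3%. Input 2 was the lowest input for 4 members (4.88%), against 22.0% of all genes. Without GFP IP 1 the members' median in the GFP IP was −0.83, and all genes' median was −0.50. Then 50 members were lower and 5 higher (61.0% and 6.10%, all genes 38.0% and 19.4%). Across members, the difference showed little relation to the mean level, with Pearson's r of −0.16, −0.17 and 0.053 in the 3 comparisons over 82 genes that share arrays.

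Some calls passed under every alternative processing and every left-out array. Of 35 named members lower in the GFP IP than in input, these were 9: Col18a1, Col7a1, Fbln2, Itgb4bp, Itgb7, Lama5, Lamb2, Thy1 and Timp1. Of 4 named members higher there, Lox alone did so. In the PABP1 IP over input S100a4 and Itgb1bp1 stayed higher, of 15 named, and Col8a1, Lama5 and Lamb2 lower, of 18 named. Between the IPs 14 of 29 lower calls stayed, among them all 5 surface and cytoskeleton genes, Timp1, Postn and Loxl1, and of 9 higher calls that of Col4a3bp. With normexp 29 of the named calls in the GFP IP over input did not pass, 25 in the PABP1 IP against input, and 20 of those between the IPs. With quantile normalization the GFP calls over input of Col2a1, Fbln1, Timp4 and Vim did not pass, nor the PABP1 calls of Col5a1, Mmp17, Postn, Tagln, Timp1 and Vim, nor the calls between the IPs of Col1a1, Col1a2, Dcn and Mmp17. With the mean of probes the same held over input for Acta2, Col8a1 and Tagln with GFP and for Col13a1, Col4a3bp, Col4a4, Itgb3bp, Itgb4 and Vim with PABP1, and between the IPs for Col1a2, Col3a1, Col8a1, Dcn, Mmp28 and Tnc. Scaling over detected probes ended the PABP1 calls of Col5a1, Lum and Postn and the calls between the IPs of Col1a1, Col7a1, Dcn, Lum, Mmp2, Mmp28 and Sparc. Scaling to the median ended the PABP1 calls of Fbln1, Lum and Mmp14 and the calls between the IPs of Col7a1, Dcn, Lum, Mmp17 and Mmp2. In the GFP IP over input, scaling over detected probes ended the call of Col2a1. Scaling to the median ended those of Col1a1, Col2a1, Col3a1, Col5a1, Col8a1, Dcn, Fbln1, Itga5, Itga9, Loxl1, Loxl2, Mmp11, Mmp2, Postn, Tagln, Timp4 and Vim. Within slide 1 those of Acta2, Col1a1, Col1a2, Col3a1, Dcn, Itgb1bp1, Loxl2, Mmp2, Postn and Tagln did not pass, nor within slide 2 those of Dcn, Itga6, Itgb1, Itgb1bp1 and Postn. With no filter on dim probes the GFP calls of Col2a1, Dcn, Itga6, Itgb1 and Itgb1bp1 did not pass, nor the PABP1 calls of Fbln1, Fbln2, Lum and Postn, nor the calls between the IPs of Col7a1, Dcn, Fn1, Lamb2, Lamc1 and Mmp28. Within slide 1 the PABP1 calls of Col13a1, Col5a1, Lum, Postn and Tagln did not pass, and within slide 2 those of Col5a1, Fbln1, Fbln2, Fn1, Itga6, Lamc1, Lum, Mmp17 and Postn. Between the IPs this held within slide 1 for Col1a1, Col1a2, Col7a1, Dcn, Lamb2, Lum and Mmp2 and within slide 2 for Col7a1, Fn1, Itga9, Lamb2, Lamc1 and Lox.

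**Figure D4:**
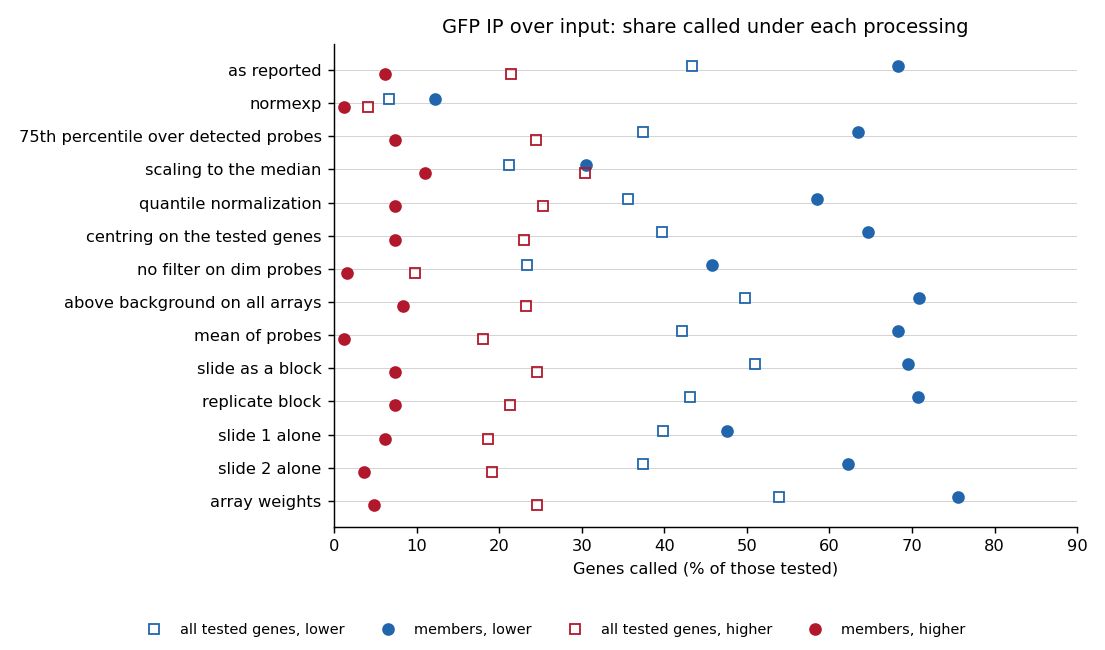
Share of genes called (percent of those tested, x axis) in the GFP IP over input under each processing (y axis) for members (filled circles) and all tested genes (open squares), lower in blue and higher in red. Under each processing shown the members' share of lower calls exceeds that of all genes, at 68.3% against 43.3% as reported and 12.2% against 6.59% with normexp background correction.

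In the authors' deposited table of group means, 46 tested members could be matched by the sequence identifier of their probe to 1 row each. The authors' deposited table gives a median log2 ratio of the GFP IP over input of −0.41 for these members, with 33 below 0. The median was 0.027 over the 25540 rows whose identifier occurs once, which, unlike the members, were not filtered by signal. Lox stands at 2.25, Fbln2 at −2.08 and Lama5 at −1.71 in the authors' deposited table. For the PABP1 IP over input the authors' deposited table gives medians of 0.020 for the members and 0.049 for all rows, and between the IPs −0.26 and −0.080.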

How the data were processed

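Labelled RNA of 8 samples was read on 1-colour Agilent arrays (design 014868) with Feature Extraction 9.1.3.1 (protocol GE1-v5_95_Feb07), per the file headers. Per the file headers, the deposited intensity is the software's processed signal, made with spatial and multiplicative detrending and surrogate values on and its separate background correction step off, and flags (other values) mark spots well above background. The authors' deposited table gives group mean intensities whose scaling is not stated in the sources used here. Here each array's log2 signal was set relative to its 75th percentile over 43379 probe spots. Control spots and 30 probes flagged as outliers were left out. The fit was limma 3.58.1 (R 4.3.3) over all 8 arrays, with lmFit and eBayes, 5 residual and 2.10 prior degrees of freedom, and Benjamini-Hochberg adjustment over 14680 genes at 0.05. A test on data simulated from the means and spreads of these arrays was run after the fit, and its outcome is not reported here. Figures were drawn with Python 3.11.15 and matplotlib 3.10.9.

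Values are printed for up to 4 tested members of highest mean signal in each role group, the 5 highest and 5 lowest members in each comparison, and preset fibroblast and integrin genes. From the pathway lists the 2 highest and 2 lowest called genes could be named. Membership follows gene names alone, but this family and the lists were chosen with earlier results of these data known. The number of arrays limits the precision. Alternatives covered background correction, scaling, filter, probe choice, slide, replicate number, array weights and leaving out each array.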

Additional observations from a re-analysis of the deposited data

How the results depend on the processing

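Median and count results for the members moved under several alternatives. For the GFP IP over input, 5 higher members (6.10%, all genes 21.4%) became 1 with normexp (1.22%, all genes 4.04%). They became 9 with scaling to the median (11.0%, all genes 30.4%). With no filter on dim probes there were 2 of 129 (1.55%, all genes 9.78%). Averaging a gene's probes gave 1 (1.22%, all genes 18.0%). The 56 lower members (68.3%, all genes 43.3%) became 10 with normexp (12.2%, all genes 6.59%) and 25 with scaling to the median (30.5%, all genes 21.1%). The median of −0.94 became −0.47 and −0.41, where that of all genes moved from −0.51 to −0.20 and 0.023. For the PABP1 IP over input, 22 higher (26.8%, all genes 34.4%) became 6 with normexp (7.32%, all genes 11.2%). With the mean of probes they became 14 (17.1%, all genes 31.1%). The 22 lower (26.8%, all genes 25.3%) became 4 with normexp (4.88%, all genes 4.37%). The median of 0.044 became −0.19 with the 75th percentile taken over detected probes, where that of all genes moved from 0.25 to 0.0081. For the GFP IP over the PABP1 IP, 9 higher (11.0%, all genes 23.8%) became 1 with normexp (1.22%, all genes 7.57%). They became 20 over detected probes (24.4%, all genes 30.5%) and 15 with scaling to the median (18.3%, all genes 29.3%). Quantile normalization gave 14 (17.1%, all genes 28.4%), as did centring on the tested genes (17.1%, all genes 25.6%). The 51 lower (62.2%, all genes 47.6%) became 19 with normexp (23.2%, all genes 21.2%). The median of −0.98 became −0.42 with normexp, −0.58 over detected probes, −0.52 with scaling to the median, −0.66 with quantile normalization, −0.68 with the mean of probes and −0.70 within slide 1. The share of higher among called members moved from 8.20% to 26.5% with scaling to the median (GFP IP over input), from an even split to 36.4% over detected probes and 37.8% with quantile normalization (PABP1 IP over input), and from 15.0% to 37.0% over detected probes, 30.6% by median scaling and 25.5% by quantiles (GFP IP over PABP1 IP). Leaving out 1 input or GFP IP gave 3 to 5 higher members in the GFP IP over input (3.66% to 6.10%, all genes 18.8% to 21.2%). There 50 to 56 were lower (61.0% to 68.3%, all genes 36.2% to 45.4%), with medians of −1.08 to −0.83. With PABP1 it gave 15 to 24 higher, 19 to 24 lower and −0.044 to 0.14, and between the IPs 6 to 10 higher, 40 to 51 lower and −1.04 to −0.80. The causes were not tested.

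Signs turned for a few named members, counted where either value was called. With the mean of probes, GFP IP over input became −0.85 for Itga6, −0.21 for Itgb1, 0.13 for Itgb1bp1 and −1.31 for Thbs1, and PABP1 IP over input became −0.89 for Col1a1, −1.15 for Col5a1, −0.61 for Itgb1, −0.66 for Thbs1 and −0.56 for Tnc. Scaling to the median gave 0.11 for Itgb1bp1 and slide 1 alone 0.76 for Mmp28 (GFP IP over input), and quantile normalization −0.44 for Itgb4bp (PABP1 IP over input). Between the IPs, detected probes gave 0.38 for Itgb4 and 0.32 for Itgb5, and quantile normalization 0.28 for Itgb4, 0.55 for Itgb5 and 0.092 for Sparc. Of all values of named members under alternatives, 1005, 1009 and 988 kept direction and side of the threshold in the 3 comparisons, and 89, 89 and 93 fell short of it.

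Deviations of same-numbered arrays from their group means correlated at −0.74 to 0.62, with a sign that followed the slide. Same-numbered pairs on the same slide gave 0.52 to 0.62, and those on different slides −0.74 to −0.29. Differently numbered pairs on the same slide were positive too, at 0.44 to 0.77. Deviations cancel within each group, and the 2 PABP1 IPs, 1 on each slide, deviate by equal and opposite amounts. Opposite signs across slides are thus partly fixed by this arithmetic. Number and slide are mixed here, so whether the replicate numbers pair the arrays could not be told. With the replicate block, 6 members were higher and 58 lower in the GFP IP over input (7.32% and 70.7%, all genes 21.3% and 43.1%, members' median −0.94). In the PABP1 IP over input it gave 26 and 24 (31.7% and 29.3%, all genes 32.6% and 25%, members' median 0.017). Between the IPs it gave 11 and 49 (13.4% and 59.8%, all genes 22.9% and 44%, members' median −0.86). Protein sequences were not used here, so the planned comparison of protein length was not run. Where a setting left 1 array in a group, that array was assumed to vary like the other groups. Signal over background limits 47 members that could not be tested.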
